A study of Rattus norvegicus with 8 samples.

Results

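Expression of 9 rat genes regulated by the transcription factor NRF2 was examined in kidneys of rats given colistin or saline. The genes were Srxn1, Nqo1, Hmox1, Gclc, Gclm, Txnrd1, Slc7a11, Osgin1 and Gsr. They were found by matching the RefSeq accession of each non-control probe to the gene, which gave 11 of the 30367 probes on the array and 9 of the 15637 genes that could be named. Of those probes, 10 were read well above background by 3 or more arrays of 1 group. All 9 genes entered the test, each through its brightest probe among the 10.

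NRF2, encoded by Nfe2l2, is held at a low level in resting cells by KEAP1, which hands it to the proteasome. Oxidants and electrophiles modify KEAP1, and NRF2 then enters the nucleus, pairs with small MAF proteins and binds antioxidant response elements in the promoters and enhancers of its targets. The targets examined here cover the repair of oxidised peroxiredoxins (Srxn1), thioredoxin and glutathione reduction (Txnrd1, Gsr), glutathione synthesis and cystine uptake (Gclc, Gclm, Slc7a11), quinone and haem metabolism (Nqo1, Hmox1) and an oxidative stress-induced growth inhibitor (Osgin1). The proximal tubule is rich in mitochondria and takes up polymyxins, and the pathway is known there for limiting oxidative injury.

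Promoter windows of 7 of the 9 genes, 8 windows in all, were taken from RefSeq for the GRCr8 assembly. Each window ran from 250 bases before the annotated start to 50 bases from it. They were searched on both strands for the core of the antioxidant response element, TGACNNNGC, and for the AP-1 motif, TGANTCA. The motifs can overlap, but no exact matches to these letters did so in these windows. The 3 windows with a match are shown, with the matched bases in capitals, because the results turn on Srxn1 and Txnrd1 and Gclm is the nearest of the other targets to Srxn1 in profile.
Srxn1, chr3:161064562-161064861, plus strand: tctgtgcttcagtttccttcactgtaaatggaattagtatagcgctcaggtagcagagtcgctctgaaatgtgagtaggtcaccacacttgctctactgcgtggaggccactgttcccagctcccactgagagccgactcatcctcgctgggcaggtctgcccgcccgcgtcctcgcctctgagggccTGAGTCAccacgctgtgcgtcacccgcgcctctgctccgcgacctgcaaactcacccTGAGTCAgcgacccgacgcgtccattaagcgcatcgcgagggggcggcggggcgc
Gclm, chr2:213031885-213032184, plus strand: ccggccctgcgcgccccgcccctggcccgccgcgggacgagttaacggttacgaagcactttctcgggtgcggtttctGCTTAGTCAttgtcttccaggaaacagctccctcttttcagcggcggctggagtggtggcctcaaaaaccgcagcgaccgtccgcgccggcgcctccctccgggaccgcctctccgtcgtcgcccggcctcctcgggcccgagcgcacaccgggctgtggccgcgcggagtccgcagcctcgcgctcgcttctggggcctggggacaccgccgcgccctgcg
Txnrd1, chr7:22755855-22756154, minus strand: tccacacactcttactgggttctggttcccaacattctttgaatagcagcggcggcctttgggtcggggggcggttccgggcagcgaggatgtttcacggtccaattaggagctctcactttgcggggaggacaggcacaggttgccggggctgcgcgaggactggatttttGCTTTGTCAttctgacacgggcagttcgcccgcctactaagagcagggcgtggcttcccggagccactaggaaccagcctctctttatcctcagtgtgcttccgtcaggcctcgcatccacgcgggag
The Srxn1 window held TGAGTCA at 2 places, of which the first began 62 bases and the second 5 bases before the start. This motif reads as AP-1 on either strand, so each place was counted once. At the second place the bases GC follow directly, so that stretch differs from TGACNNNGC at 1 letter, a G in place of the first C. Read on the opposite strand, the first place also differs from it at 1 letter. Looser forms of the element were not searched. An AP-1 match was present in 7.33% of 33469 windows of this length, and 2 or more in 0.415%. None of the other 7 windows of these genes held it. The core of the antioxidant response element was present in the Gclm window and in 1 of the 2 Txnrd1 windows, on the strand opposite to the one printed, and in 12.1% of all windows. A match is a description of the letters, and the absence of a match says only that these letters are not in the window.

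The animals were male rats labelled as 10 weeks of age, and kidney RNA was sampled at day 28 in both groups. The 4 control samples came from rats given saline and the other 4 from rats given colistin at 30 mg/kg. Colistin is a polymyxin antibiotic whose clinical use is limited by tubular injury, and the series sets the antibiotic against saline to profile gene expression in injured kidney. No label gives a strain or a dosing schedule, and the labels name whole kidney although the series title speaks of injured tubules. The labels number the samples without saying that each came from its own animal, so the p-values reflect only how much these samples varied, which may be technical.

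All 16 tubule markers listed for a check of the tissue were well above background on all 4 saline arrays, and 14 of them on all 4 colistin arrays. The saline arrays were dimmer, with a 75th percentile of processed signal between 156 and 197, against 271 to 317 on colistin arrays. Of 12411 genes tested, 248 changed (limma, adjusted p below 0.05), 181 higher and 67 lower in colistin, so that 73.0% were higher. After normexp correction 60.9% of the changed genes were higher (348 higher, 223 lower). Without colistin array 1, 2, 3 or 4 the count fell to 98, 106, 110 or 78. Over all tested genes the log2 fold change had a median of -0.14. Tissue RNA cannot tell fewer cells of a type from less RNA per cell.

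Srxn1 was the only one of the 9 genes that passed the test, and it rose 48.0-fold, a log2 fold change of 5.59 that was 4.63 with normexp correction. The other 8 genes had log2 fold changes from -1.58 for Nqo1 to 1.19 for Gclm. The sign was positive for 6 of the 9 genes and negative for 3, and their median was 0.47. Across all genes 1.46% passed as higher and 0.540% as lower. At an unadjusted p below 0.05, 3 of the 9 genes passed (Srxn1, Txnrd1 and Gsr), as did 22.7% of all genes. The 4 colistin arrays lay above all 4 saline arrays for Srxn1 and Txnrd1, a pattern shown by 6.89% of all genes. No member lay wholly lower, as 11.7% of all genes did, and in either direction the share of all genes was 18.6%.

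**Figure D1:**
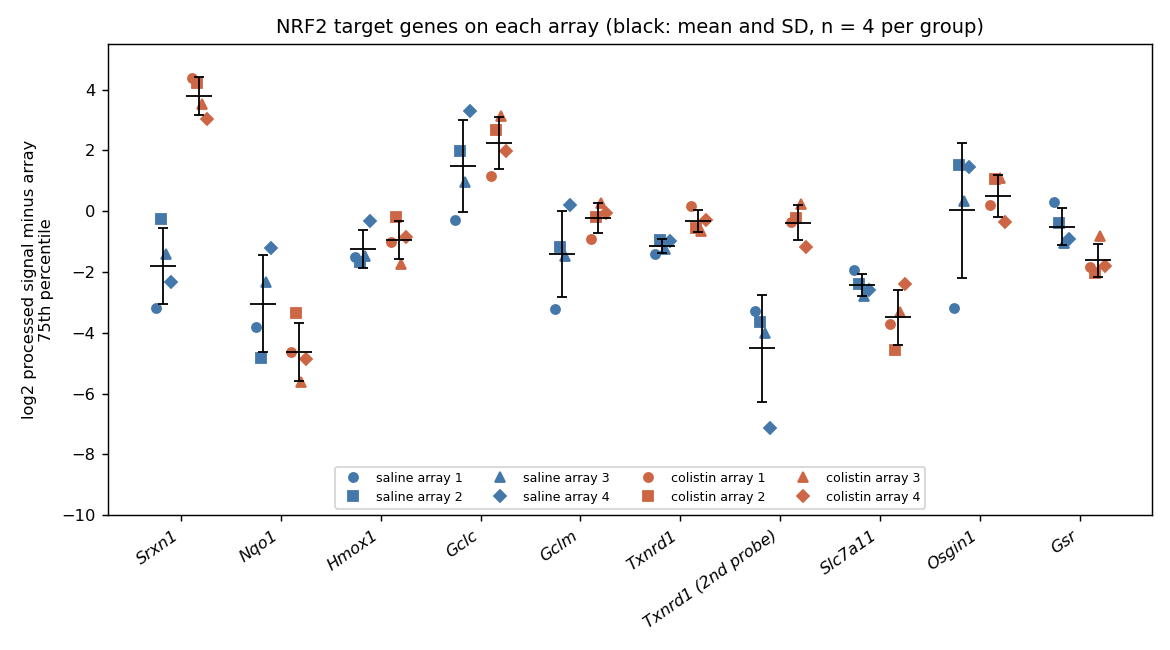
Levels of the 9 genes on each array, as log2 of processed signal relative to the 75th percentile of that array, with saline in blue and colistin in red. Symbols mark the 4 arrays of a group and black bars the mean and SD. Srxn1 sits between 3.03 and 4.39 on colistin arrays and at -0.25 or below on saline arrays, and most other genes overlap.

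Srxn1 encodes sulfiredoxin, which returns hyperoxidised peroxiredoxins to their active form. Its level, as log2 processed signal relative to the array's 75th percentile, was -3.18, -0.25, -1.40 and -2.33 on saline arrays 1 to 4. On colistin arrays 1 to 4 it was 4.39, 4.23, 3.52 and 3.03. The groups were separated by 3.29 log2 units, a gap larger than the range within either group. In linear processed signal the saline arrays read 17.2, 161, 74.3 and 31.1 and the colistin arrays 6387, 5768, 3102 and 2599. The probe was well above background on all 8 arrays. Saline arrays 1 and 4 were dim, at 17.2 and 31.1, and the size of the rise depended on the background correction (4.63 with normexp).

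The rise of Srxn1 was 5.59 ± 0.65 (log2 fold change ± SE, n = 4 per group; 95% interval 4.09 to 7.08; limma adjusted p = 0.00846). By size it ranked 27 and by p-value 33 among 12411 genes. Within slide 1, 2 and 3 the difference was 6.99, 3.77 and 5.11. With slide as a block the estimate was 5.43 and the adjusted p 0.0557, which ended the call, as it did for most changed genes: 40 genes passed under that block. With each array left out in turn the estimate ran from 5.12 to 6.10 and the adjusted p from 0.00682 to 0.0323.

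**Figure D2:**
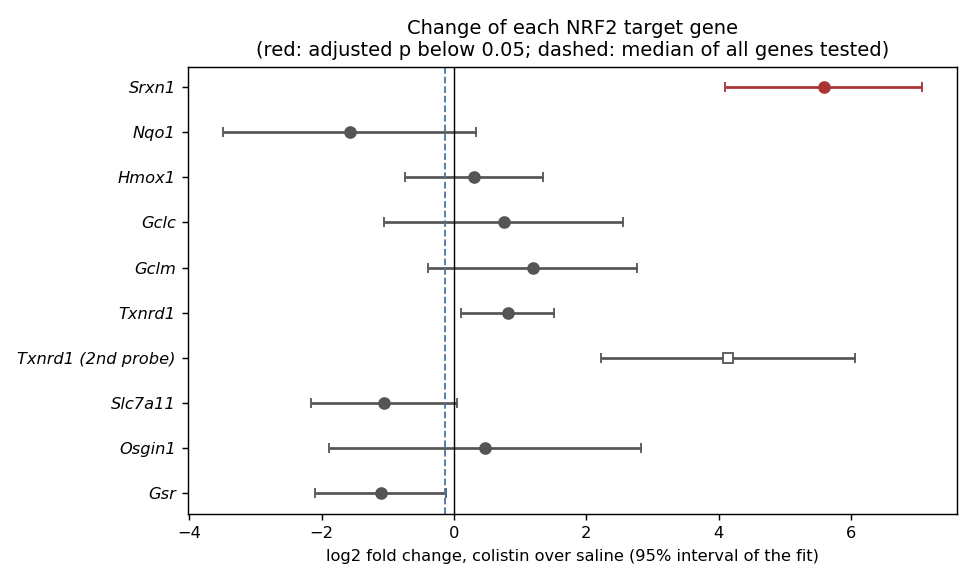
Log2 fold change of each gene, colistin over saline, with the 95% interval of the limma fit. Srxn1, in red, is at 5.59, the second Txnrd1 probe (open square, from the fit over probes) at 4.14, and the other 8 genes lie between -1.58 and 1.19; the dashed line is the median of all genes, -0.14.

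Txnrd1 encodes cytosolic thioredoxin reductase, which keeps thioredoxin reduced and so supplies electrons to peroxiredoxins. Its 2 probes, both assigned to the same transcript, gave different sizes. The brighter probe, which stood for the gene, read -1.40, -0.95, -1.24 and -0.97 on saline arrays and 0.17, -0.56, -0.64 and -0.28 on colistin arrays. All colistin values were above all saline values, by 0.31 log2 units at the closest. The difference was 0.81 ± 0.30 (95% interval 0.11 to 1.51; limma adjusted p = 0.18), and did not pass.

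The second Txnrd1 probe read -3.28, -3.65, -4.01 and -7.12 on saline arrays and -0.35, -0.22, 0.25 and -1.16 on colistin arrays. Here too the groups did not overlap, with a gap of 2.12, and saline array 4 was the lowest and the only array not well above background. In a fit over the 23710 kept probes that had a value on all 8 arrays, added after the probes were seen to differ, its difference was 4.14 ± 0.83 (limma adjusted p = 0.0586). In that fit 1.48% of probes passed, 1.11% as higher, and 6.87% of probes had all colistin arrays above all saline arrays. Without saline array 4 the difference was 3.27 and the adjusted p 0.0212. With normexp correction it was 1.80 and the adjusted p 0.013. With the slide block it was 4.06 and the adjusted p 0.161. When the 2 probes were averaged, Txnrd1 passed with 2.48 ± 0.44 (limma adjusted p = 0.0328). As a description, the second probe minus the first ran from -6.15 to -1.88 on saline arrays, with saline array 4 at the low end, and from -0.88 to 0.89 on colistin arrays. The files do not say which part of the transcript each probe reads.

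Glutathione synthesis was represented by the catalytic (Gclc) and modifier (Gclm) subunits of glutamate-cysteine ligase, the enzyme that limits its rate. Gclc read -0.27, 1.97, 0.95 and 3.30 on saline arrays and 1.16, 2.68, 3.13 and 1.99 on colistin arrays. The groups overlapped over most of their range, and the difference was 0.75 ± 0.79 (95% interval -1.06 to 2.56; limma adjusted p = 0.582). It was 0.16 without saline array 1 and 1.36 without saline array 4. Gclm read -3.20, -1.18, -1.46 and 0.22 on saline arrays and -0.92, -0.18, 0.28 and -0.06 on colistin arrays. Saline array 4 lay among the colistin arrays and the other 3 saline arrays below all of them. The difference was 1.19 ± 0.69 (95% interval -0.38 to 2.76; limma adjusted p = 0.321). It was 0.59 without saline array 1 and 1.73 without saline array 4.

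Slc7a11 encodes the cystine carrier xCT, which imports the cysteine precursor of glutathione. Its brighter probe read -1.95, -2.41, -2.79 and -2.59 on saline arrays and -3.70, -4.56, -3.32 and -2.39 on colistin arrays. Colistin array 4 lay within the saline range and the other 3 below it. The difference was -1.06 ± 0.48 (95% interval -2.16 to 0.05; limma adjusted p = 0.234). A second Slc7a11 probe was not well above background on any array and was not tested.

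Gsr encodes glutathione reductase, which regenerates glutathione from its oxidised form. It read 0.30, -0.37, -1.03 and -0.93 on saline arrays and -1.85, -2.02, -0.81 and -1.79 on colistin arrays. Colistin array 3 was the only one inside the saline range. The difference was -1.11 ± 0.43 (95% interval -2.09 to -0.13; limma adjusted p = 0.186), and did not pass over all genes.

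Nqo1 encodes the quinone reductase often used as a readout of NRF2 activity. It read -3.80, -4.84, -2.33 and -1.23 on saline arrays and -4.64, -3.36, -5.63 and -4.87 on colistin arrays. The groups overlapped, and colistin arrays 3 and 4 read lower than any saline array. The probe was dim, at 5.46 to 66.9 units of processed signal over the 8 arrays, though well above background on each. The difference was -1.58 ± 0.83 (95% interval -3.49 to 0.33; limma adjusted p = 0.286). Its interval did not overlap that of Srxn1. With normexp correction the difference of Nqo1 was -0.45.

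Hmox1 encodes haem oxygenase 1, which degrades haem and is also induced by other stress pathways and expressed by macrophages that clear red cells. It read -1.52, -1.67, -1.48 and -0.32 on saline arrays and -1.02, -0.19, -1.73 and -0.84 on colistin arrays. The groups overlapped throughout, and the difference was 0.30 ± 0.45 (95% interval -0.74 to 1.34; limma adjusted p = 0.706). Of 9 macrophage markers, 7 were tested, and all 7 had a negative fold change. Of these 0 passed (limma, adjusted p) and 3 had an unadjusted p below 0.05 (22.7% of all genes). The summed macrophage level was 3.68 to 4.39 on saline and 2.50 to 3.19 on colistin arrays (log2 of the summed scaled signals). Cd163, the haemoglobin scavenger receptor gene, and Mrc1 were not well above background on any array. Of 5 erythrocyte genes tested 3 fell (0.540% of all genes), and their summed level was 5.97 to 6.54 on saline and 2.93 to 4.05 on colistin arrays. The part of these markers in the Hmox1 values was not tested.

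Osgin1 encodes oxidative stress-induced growth inhibitor 1. It read -3.19, 1.53, 0.34 and 1.46 on saline arrays and 0.22, 1.04, 1.10 and -0.35 on colistin arrays. Saline array 1 lay far below the other 7. The difference was 0.47 ± 1.03 (95% interval -1.89 to 2.83; limma adjusted p = 0.804), and without saline array 1 it was -0.61 (adjusted p = 0.518).

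The position of an array within its group was counted over the 9 genes. Saline array 1 was the lowest of its group for 5 of the 9 (Srxn1, Gclc, Gclm, Txnrd1 and Osgin1) and the highest for 2 (Slc7a11 and Gsr). Saline array 4 was the highest for 4 (Nqo1, Hmox1, Gclc and Gclm). Among the colistin arrays no array was the lowest for more than 3 genes, and colistin array 3 was the highest for 4. The SD over saline arrays reached 2.22 for Osgin1, 1.59 for Nqo1 and 1.52 for Gclc, against 0.70, 0.94 and 0.86 over colistin arrays. Without saline arrays 1 and 4, Srxn1 remained the gene that passed, with an estimate of 4.62 (limma adjusted p = 0.0301).

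As a description, Srxn1 was set against each of the other 8 genes on the same array. On each array the level of each other gene was subtracted from that of Srxn1, and the group means of these differences were set side by side. In all 8 pairs the colistin arrays lay above the saline arrays, by mean differences of 4.40 against Gclm to 7.16 against Nqo1. The pairs share the Srxn1 values and are not independent, and no test is given because the separation of Srxn1 was known.

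Other genes of the pathway were taken from 7 lists, which held 74 different genes that could be tested. Of these 1 rose and 0 fell (limma, adjusted p below 0.05), or 1.35%, against 2.00% of all genes in either direction. The median was 0.19. At an unadjusted p below 0.05 there were 23, where 22.7% of all genes passed. All colistin arrays lay above all saline arrays for 14 of the 74 (18.9%, against 6.89% of all genes) and below them for 7 (9.46%, against 11.7%).

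**Figure D3:**
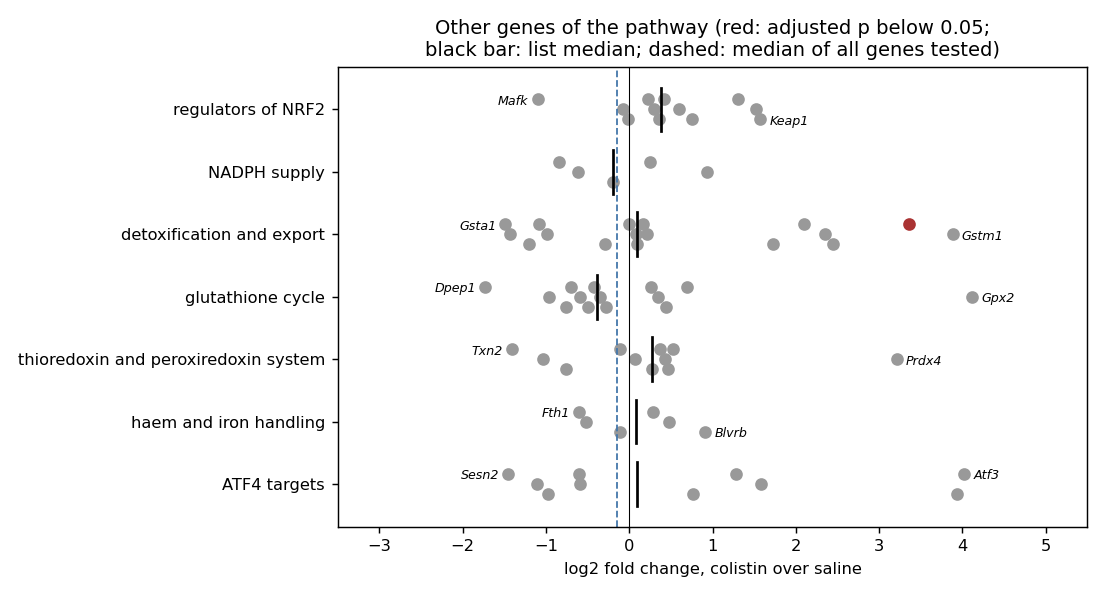
Log2 fold change, colistin over saline, of each tested gene in 7 lists around NRF2; each point is a gene, labels name the lowest and highest of each list with 6 or more genes, and black bars are list medians. Abcc2 at 3.36 is the only red point, and the medians run from -0.39 for the glutathione cycle to 0.38 for the regulators.

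Among the regulators of NRF2, 12 genes were tested and 0 passed, with 2 at an unadjusted p below 0.05 (22.7% of all genes). The list median was 0.38. Nfe2l2 itself read 0.42, -1.04, -1.75 and -1.07 on saline arrays and -0.63, -0.83, -0.70 and 0.39 on colistin arrays. The groups overlapped, with a difference of 0.42 ± 0.52 (limma adjusted p = 0.649). Keap1, its inhibitor, differed by 1.57 ± 0.58 (limma adjusted p = 0.175). Sqstm1, which encodes the autophagy receptor p62 that binds KEAP1, differed by 1.30 ± 0.35 (limma adjusted p = 0.101). For Keap1 and Sqstm1 all colistin arrays lay above all saline arrays, a pattern shown by 6.89% of all genes. The Keap1 groups nearly met, at -0.92 on colistin array 3 and -0.94 on saline array 2. The MAF partner gene Mafg gave 0.30 ± 0.46 and the competing repressor gene Bach1 -0.07 ± 0.72, a sign that turned with quantile scaling.

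Genes of NADPH supply, which feeds both reductases, had a median of -0.20 over 5 tested. Of these 0 passed and 1 had an unadjusted p below 0.05 (22.7% of all genes). Malic enzyme 1, Me1, gave -0.62 ± 0.37 from its brightest probe (limma adjusted p = 0.338) and -0.06 when its probes were averaged (adjusted p = 0.949). Pgd was not matched to a probe and is not analysed here.

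Detoxification and export genes had a median of 0.10 over 17 tested, and 1 rose and 0 fell (1.46% and 0.540% of all genes), with 9 at an unadjusted p below 0.05 (22.7% of all genes). Abcc2 encodes the efflux pump MRP2, which exports glutathione conjugates at the apical membrane of the proximal tubule. It read -1.11, -0.17, -1.27 and 0.88 on saline arrays and 3.31, 3.49, 3.13 and 1.86 on colistin arrays. All colistin values lay above all saline values, as for 6.89% of all genes. The rise was 3.36 ± 0.58 (limma adjusted p = 0.0306). The call was lost when any of saline 1 to 3 or colistin 1 to 3 was left out (adjusted p = 0.0604 to 0.0917), without saline arrays 1 and 4 together (0.0572), with array-median scaling (0.0515) and with the slide block (0.0867).

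The glutathione cycle had a median of -0.39 over 14 genes tested. Of these 0 passed and 4 had an unadjusted p below 0.05 (22.7% of all genes). Gss, glutathione synthetase, gave 0.70 ± 0.59 (limma adjusted p = 0.491). Slc3a2, the heavy chain that carries xCT to the membrane, gave -0.76 ± 0.47 (adjusted p = 0.354). The plasma glutathione peroxidase gene Gpx3, made mainly by the proximal tubule, gave -0.70 ± 0.30 (adjusted p = 0.212).

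The thioredoxin and peroxiredoxin system holds the substrates of sulfiredoxin. Its median was 0.27 over 11 genes tested, of which 0 passed and 2 had an unadjusted p below 0.05 (22.7% of all genes). Prdx1, a typical 2-cysteine peroxiredoxin, gave 0.37 ± 0.45 (limma adjusted p = 0.643) and thioredoxin, Txn1, gave 0.43 ± 0.37 (adjusted p = 0.493). Prdx4, the peroxiredoxin of the endoplasmic reticulum, had the highest value of the list, 3.21 ± 0.83 (adjusted p = 0.0954), with 1 of 4 saline arrays well above background; it is named after its value was seen. The thioredoxin inhibitor gene Txnip gave -1.04 ± 0.46 (adjusted p = 0.222).

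Haem and iron genes beside Hmox1 had a median of 0.09 over 6 tested, and 0 passed, also at an unadjusted p below 0.05. Targets of ATF4, a stress factor that also drives Slc7a11, had a median of 0.09 over 10 tested. Of these 0 passed and 5 had an unadjusted p below 0.05 (22.7% of all genes). The list was split, with 5 positive and 5 negative values, from -1.46 for Sesn2 to 4.02 for Atf3. Atf4 differed by 1.28 ± 0.51 (limma adjusted p = 0.194).

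The genes nearest to Srxn1 in profile were found by the root mean square difference, over the 8 arrays, between log2 values centred on each gene's mean. They were Atat1 (0.63), Ephb1 (0.65), Adamts1 (0.69), Anxa2 (0.76) and Ubd (0.76). Atat1 encodes the alpha-tubulin acetyltransferase, Ephb1 an ephrin receptor, Adamts1 a secreted metalloproteinase, Anxa2 a membrane-binding annexin and Ubd a ubiquitin-like modifier. On saline arrays 1 to 4 Atat1 was well above background on 1 array, and Ephb1 and Adamts1 on 3. Their saline values thus rest in part on signals that were not well above background. The rise of Ephb1 depended on the probe, at 4.71 from the brightest and 3.01 with its probes averaged. Limited to probes well above background on all 8 arrays it was 1.31 (limma adjusted p = 0.34). The root mean square difference from Srxn1 was 2.47 for Gclm and 2.51 for Txnrd1, the nearest of the 8 other NRF2 targets. It was 3.90 for Nqo1, the farthest. This measure grows with the difference in fold change, so genes that changed little are far from Srxn1 by it. The 5 nearest genes were chosen over these same 8 arrays, so their split between the groups was fixed by the choice.

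**Figure D4:**
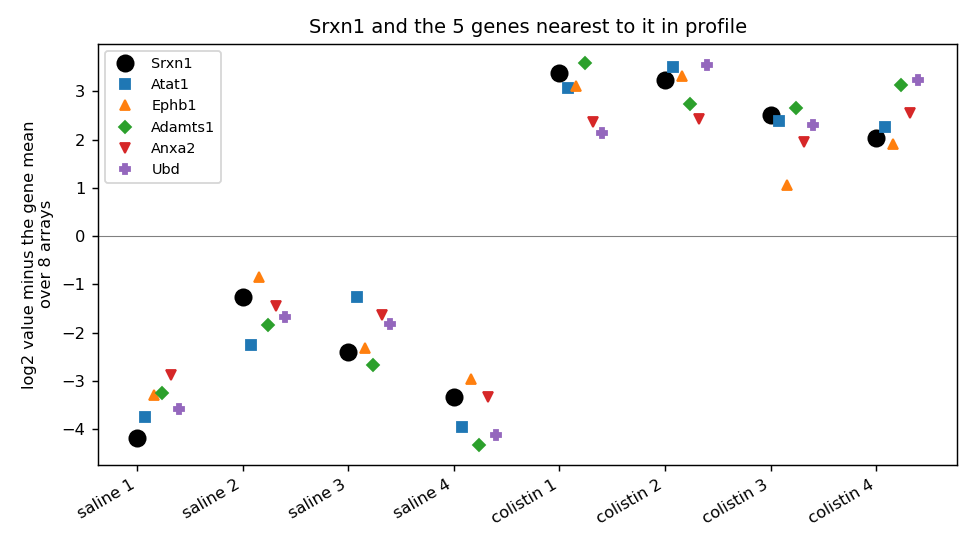
Log2 values on each array minus the gene's mean over the 8 arrays, for Srxn1 (black circles) and the 5 genes nearest to it. All 6 genes lie below 0 on the 4 saline arrays and above 0 on the 4 colistin arrays. The 5 were picked for likeness to Srxn1 over these arrays, so the shared split is no separate result.

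Markers of cell types moved in the same samples. Of 6 injured-tubule markers tested 2 rose (1.46% of all genes), Havcr1 by 4.48 (limma adjusted p = 0.0063) and Spp1 by 5.70 (adjusted p = 0.00374), and the summed level of the list was 2.45 to 3.13 on saline and 4.80 to 5.87 on colistin arrays. The other 4 did not pass, and Vcam1 (-1.51) and Krt18 (-0.53) had negative values. Falls, found in 0.540% of all genes, were found for 2 of 9 proximal tubule, 2 of 7 thick ascending limb and distal, 4 of 6 endothelial and 1 of 5 fibroblast markers. The fold change was positive for 2 of the 9 proximal tubule markers, Cubn (1.25) and Slc5a2 (1.14), neither of which passed. The summed proximal tubule level was 9.41 to 10.3 on saline and 8.27 to 9.14 on colistin arrays. The summed endothelial level was 5.06 to 5.73 and 2.27 to 2.93, and the fibroblast 4.43 to 5.20 and 2.69 to 4.06. For the thick ascending limb and distal list it was 6.30 to 6.98 and 0.95 to 4.87. The low end was colistin array 1 alone, where Umod read -6.24 and Aqp2 -2.79. On colistin arrays 2 to 4 Umod read -0.47 to 0.40 and Aqp2 2.50 to 3.43. The part of these shifts in the values of the NRF2 targets was not tested.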

How the data were processed

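RNA of 4 saline and 4 colistin kidney samples was hybridised to 1-colour (Cy3) arrays, 1 sample each, after column extraction and cDNA amplification, per the labels' protocols. The deposited scanner values were spot intensities, which the authors obtained with version 10.5 of Agilent Feature Extraction; the submitters' processing notes give this. They were corrected for background and detrended within each array, per the file headers, and not scaled between arrays. The deposited series table held log2 values whose scale and centring are unstated; array-to-array differences in it matched the scanner values with correlations of 0.99977 or above, and probe medians were at 0. Column medians of that log2 table, as deposited, were 0.232, 0.0228, 0.0861 and 0.196 for saline and -0.113, -0.229, -0.0885 and -0.0325 for colistin arrays.

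Non-uniform and outlying spots (257 to 461 per array of 42877) were left out and spots of a probe averaged. Values were log2 of processed signal relative to the 75th percentile of each array. A probe was kept where 3 or more of the 4 arrays of 1 group read it well above background (23718 probes). On an array, a probe counted as well above background if any of its spots left in was flagged so. Kept probes were named through RefSeq accessions (18643 of 30367 probes matched), and the brightest probe represented a gene. Groups were compared with lmFit and eBayes in limma 3.58.1 (R 4.3.3), two-sided, with Benjamini-Hochberg adjustment over 12411 genes; the fit was tested on simulated data. The headers place the arrays on 3 slides, each with both groups: slide 1 held saline 1 and 4 and colistin 2, slide 2 saline 2 and colistin 3, slide 3 saline 3 and colistin 1 and 4. Normexp (offset 50) used the median spot signal, since no mean signal column was used here, followed by quantile scaling. The number of arrays limits precision.

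The members, lists and tests were chosen with earlier results of these data known. Named genes were the 9 members, list genes past the threshold, 15 fixed pathway genes (1 of them is not reported here) and the 5 nearest to Srxn1. Same-numbered samples were checked for pairing: their deviations correlated at -0.02 to 0.01, so the numbers were not used as pairs.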

Additional observations from a re-analysis of the deposited data

Results flagged for a closer look

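Hmox1 on saline array 4 was at -0.32, against -1.67 to -1.48 on the other 3 saline arrays, on the log2 scale relative to the array's 75th percentile. The gap to the nearest array was 0.858 of the range of the group, above the 95% critical value of Dixon's test for 4 samples. Of 20 groups of 4 arrays checked this was the 1 that stood out, and chance gives about 1 in 20. The same array was the highest saline array for Nqo1, Gclc and Gclm.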

How the results depend on the processing

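Srxn1 kept its direction under all 19 alternatives (log2 fold change 4.62 to 6.10) and passed in 17 of them. It did not pass with slide as a block or with the replicate number as a block (adjusted p = 0.0728 by limma), where 0 of the 9 genes were called, and 1 had an unadjusted p below 0.05 in each. Averaging probes raised the number of members called to 2, where 270 of 12411 genes were called. The added member was Txnrd1, whose second probe was not well above background on saline array 4. The count of changed genes was 571 with normexp, 40 with the slide block, 5 with the replicate block and 143 without saline arrays 1 and 4, and 78 to 255 with 1 array left out. All 8 fits that left out 1 array called 1 member. Deviations of same-numbered samples showed little correlation, and whether the replicate numbers pair the samples is not known. The replicate block is given for its counts. Signs turned for Bach1 with quantile scaling (0.0196) and with 1 array left out (-0.67 to 0.34), for Mafg with 1 array left out (-0.0139 to 0.59), and for Osgin1 with 1 array left out (-0.61 to 0.97) and without saline arrays 1 and 4 (-0.43). The cause was not tested. Nqo1, Hmox1, Gclc, Gclm, Slc7a11 and Gsr kept their sign and stayed uncalled in all 19 alternatives. The folds of dim probes depended on the background correction. With normexp correction Nqo1 went from -1.58 to -0.45, Slc7a11 from -1.06 to -0.33 and the second Txnrd1 probe from 4.14 to 1.80. Nor is the sign of a dim probe certain. The second Slc7a11 probe, not well above background on any array, read -7.49 to -7.01 on saline arrays. On colistin arrays it read -8.36 to -8.10, and the part of the scaling in this was not tested.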

Other observations

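A few detoxification and glutathione genes outside the rule for named genes, picked here after their values were seen, differed widely without passing. Gpx2, the epithelial glutathione peroxidase gene, read -2.99, -0.24, 1.39 and 2.94 on saline arrays and 4.42, 4.10, 4.13 and 4.92 on colistin arrays, a difference of 4.12 ± 1.13 (limma adjusted p = 0.105). Its saline arrays spread over a far wider range than its colistin arrays. Gstm1, a mu-class glutathione transferase gene, read -1.18, 3.48, 3.27 and 2.89 on saline arrays and 5.20, 6.43, 6.24 and 6.12 on colistin arrays (3.88 ± 1.005, limma adjusted p = 0.0953). Gstp1, the pi-class transferase gene, differed by 2.35 ± 0.52 (limma adjusted p = 0.0693). In the other direction, Dpep1, a brush border dipeptidase gene that acts in glutathione breakdown, gave -1.73 ± 0.38 (limma adjusted p = 0.0641). The groups did not overlap for any of these 4 genes, which were picked by their values. Of all genes, 6.89% lay wholly higher and 11.7% wholly lower in colistin. Near-identical family members leave the target of the Gstm1 probe uncertain.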
